A study of Mus musculus with 9 samples.

Results

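The genes described here mark neurons that use GABA or glycine as their transmitter. They are 8 genes: the GABA-synthesising enzymes Gad1 and Gad2, the glycine transporter gene Slc6a5, and the transcription factor genes Pax2, Lhx1, Lhx5, Tfap2a and Tfap2b. They were picked by name, as a set with a known role, from the 17482 genes of a table of bulk RNA sequencing. All 8 were present in the table and all 8 passed the filter on low values.

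The libraries came from tumours of mice at postnatal day 8 or 9, whose tissue is labelled MB, and form 3 groups of 3. YSGr tumours carried the alleles fYap1 and fSMO-M2 with hGFAPcre and were marked as rescued. YSGnr tumours had the same genotype and were marked as non-rescued, and SG tumours carried fSMO-M2 and hGFAPcre without fYap1. SMO-M2 is a constitutively active form of the Hedgehog pathway protein Smoothened, fYap1 is a conditional allele of the Hippo pathway coactivator gene Yap1, and hGFAPcre drives Cre recombinase from a human GFAP promoter, which is active in neural progenitors. All 3 groups therefore share active SMO-M2, and no library came from tissue without it. The labels do not say what rescue means, how many copies of fYap1 a tumour had, or whether libraries came from separate animals, so the p-values reflect only how far libraries differ, which may be technical. In whole tumour tissue, fewer cells of a type and less RNA per cell cannot be told apart.

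Several facts of the libraries bear on every value. Effective library sizes lay from 18.1 to 32.2 M (mega) reads, apart from YSGnr replicate 1 with 3.92 M, where the member genes rest on 35.1 (Tfap2a) to 521.9 (Lhx1) estimated reads. In that library 63.4% of the reads came from Yam1 and Lars2, genes chosen after their values were seen, against 1.98% to 8.15% in the others. Yap1, the targeted gene, stood at 4.44, 3.31 and 2.79 log2 CPM (the log2 of reads scaled by the size of the library) in YSGr and 2.79, 2.57 and 1.99 in YSGnr, against 5.04, 5.11 and 5.03 in SG. YSGr replicate 3 stood apart in its group: the Hedgehog target Gli1 was 7.57 log2 CPM there, against 5.12 and 5.01 in replicates 1 and 2 and 7.48 to 7.75 in SG, and the granule progenitor factor gene Atoh1 was 6.89, against 3.89 and 3.34 in replicates 1 and 2. The X-inactivation RNA Xist was at 9.81 log2 CPM or more in YSGr and YSGnr replicate 1 and below 0 in the other 5 libraries, so in YSGr against SG genotype and that split cannot be told apart. The Y-linked gene Ddx3y was at the lowest value, -3.52 log2 CPM, in the libraries with high Xist and between 4.97 and 5.99 in the other 5. By these genes YSGnr replicate 1 differed in sex from YSGnr replicates 2 and 3, so the YSGnr libraries came from more than 1 animal. Granule lineage markers were present in every library, with Barhl1 between 7.38 and 9.27 log2 CPM and Zic1 between 9.66 and 10.51.

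In the developing cerebellum, GABAergic neurons arise from the ventricular zone, whose progenitors require the factor Ptf1a, whereas granule cells arise from the rhombic lip under Atoh1. Pax2 marks the precursors and immature forms of cerebellar GABAergic interneurons, the AP-2 factors Tfap2a and Tfap2b act in the specification of GABAergic neurons downstream of Ptf1a, and the LIM-homeodomain factors Lhx1 and Lhx5 act in GABAergic neurons that include Purkinje cells. Gad1 and Gad2 then make GABA from glutamate, and Slc6a5 carries glycine back into glycinergic terminals, among them those of cerebellar Golgi cells. Gad1, Gad2, Lhx1 and Lhx5 are thus shared by interneurons and Purkinje cells, while Pax2 and Slc6a5 are not Purkinje cell genes.

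The stretches before the start sites of 4 members are shown because 3 of them, Pax2, Tfap2b and Gad2, differed between YSGr and YSGnr and the other, Lhx1, did not pass that test. Each comes from the 250 bases before a RefSeq start site on GRCm38.p6, with any annotated exon left out, and capitals mark a match to 1 of 4 searched motifs. Pax2 is on the + strand at chr19:44755502-44755751, Tfap2b on the + strand at chr1:19211804-19212053, Gad2 on the + strand at chr2:22622077-22622204, and Lhx1 on the - strand at chr11:84525536-84525659.
Pax2: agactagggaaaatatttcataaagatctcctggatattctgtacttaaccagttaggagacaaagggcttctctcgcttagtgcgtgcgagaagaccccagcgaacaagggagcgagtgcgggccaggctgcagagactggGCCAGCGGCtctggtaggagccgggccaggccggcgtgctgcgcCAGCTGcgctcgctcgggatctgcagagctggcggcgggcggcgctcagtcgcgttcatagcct
Tfap2b: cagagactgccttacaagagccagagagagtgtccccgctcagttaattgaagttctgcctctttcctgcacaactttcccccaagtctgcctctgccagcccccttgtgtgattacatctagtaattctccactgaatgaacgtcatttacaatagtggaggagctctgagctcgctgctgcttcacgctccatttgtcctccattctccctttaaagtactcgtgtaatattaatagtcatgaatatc
Gad2: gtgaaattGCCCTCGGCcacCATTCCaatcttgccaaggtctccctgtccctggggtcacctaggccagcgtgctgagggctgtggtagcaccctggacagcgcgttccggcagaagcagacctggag
Lhx1: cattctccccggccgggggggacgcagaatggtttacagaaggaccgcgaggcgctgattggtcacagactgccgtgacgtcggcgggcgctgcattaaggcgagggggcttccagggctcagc

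The motifs were searched on both strands. They were the AP-2 motif GCCNNNGGC, found in 13.7% of all 32851 windows of 250 bases, the LIM-homeodomain motif TAATTA in 4.84%, the E-box CAGCTG in 13% and the TEAD motif GGAATG in 12.6%. The capitals in Pax2 mark an AP-2 match and an E-box, and those in Gad2 an AP-2 match and the TEAD motif read on the other strand, with no overlap between them. The Tfap2b and Lhx1 stretches held no match, which says only that these letters are absent from these windows. Pax2 has further RefSeq start sites, whose windows held no match, and the window of Gad1 held none either. A window of Slc6a5 held the TEAD motif and a window of Tfap2a the LIM-homeodomain motif, and neither gene was called in YSGr against YSGnr. The whole Gad2 window held 2 AP-2 matches, not all of them in the stretch shown. The shares above are for 250 bases, whereas the Gad2 and Lhx1 stretches are 128 and 124 bases long. Of the 8 members 7 had a window, Lhx5 having none.

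Compared per kilobase of transcript, Lhx1 and Gad1 were the most abundant members in all 3 groups. Lhx1 averaged 30.3 ± 3.1 CPM per kilobase in YSGr, 34.7 ± 2.43 in YSGnr and 30.3 ± 2.37 in SG (SD, n = 3 each). Gad1 averaged 41.4 ± 17.3 CPM per kilobase in YSGr, 13.9 ± 3.62 in YSGnr and 21.1 ± 0.554 in SG. In YSGr these 2 overlapped, and in YSGnr and SG every Lhx1 value was above every Gad1 value. Slc6a5 had the lowest mean in all 3 groups, with 2.37 ± 1.15 CPM per kilobase in YSGr, 0.835 ± 0.461 in YSGnr and 1.33 ± 0.266 in SG. The 5 genes between these ranged in mean from 4.73 (Tfap2a) to 9.63 (Lhx5) CPM per kilobase in YSGr, from 1.36 (Pax2) to 4.27 (Lhx5) in YSGnr and from 3.20 (Gad2) to 4.74 (Pax2) in SG. In YSGr and YSGnr the neighbours in this order among Gad2, Pax2, Tfap2a and Tfap2b overlapped, and in SG the neighbours Pax2, Lhx5 and Tfap2a overlapped. Slc6a5 overlapped the member above it in YSGr and YSGnr but not in SG.

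**Figure D1:**
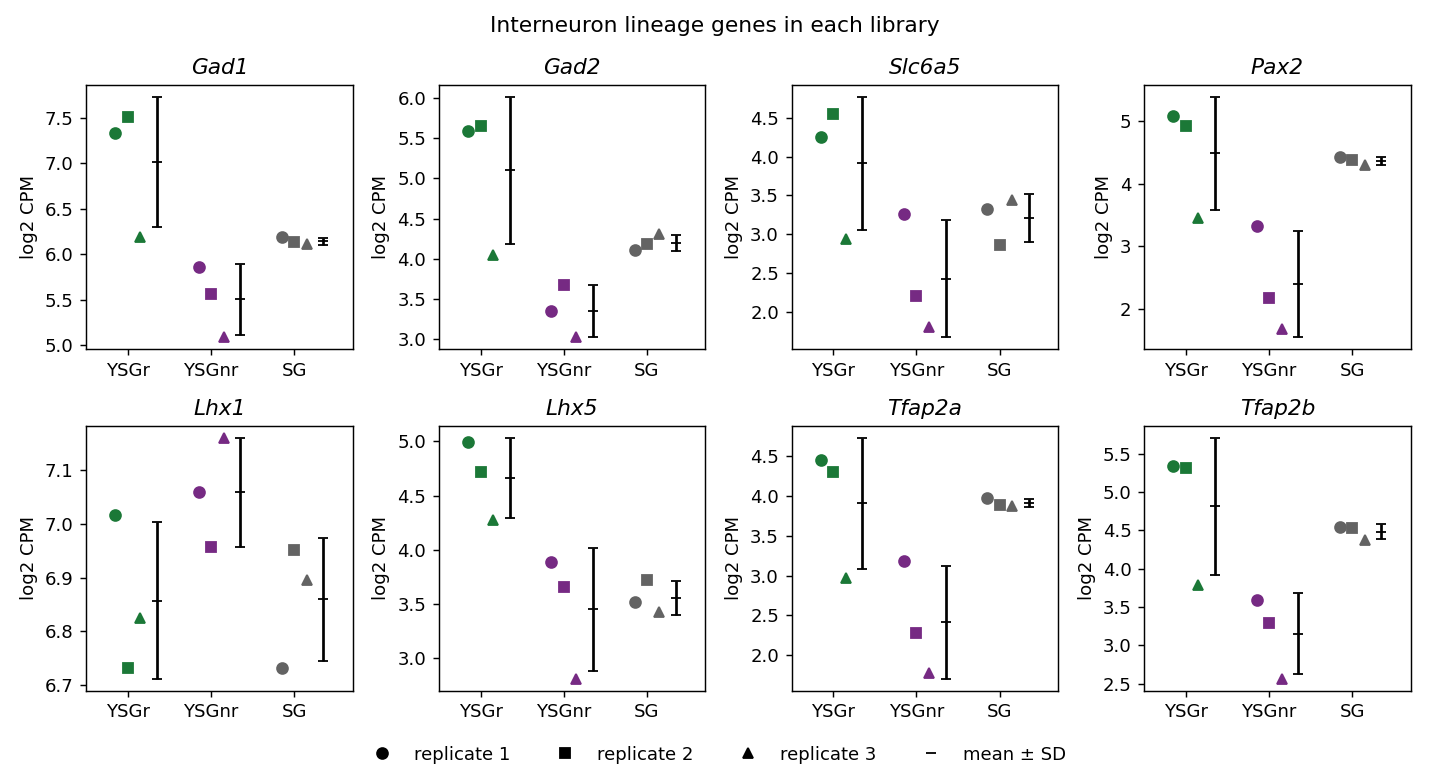
Level of each of the 8 genes in log2 CPM (vertical axis) in the YSGr, YSGnr and SG libraries, left to right, with 1 point per library and a bar at the group mean. In every panel except Lhx1, YSGr replicate 3 lies below the other 2 YSGr libraries. In those panels the SG points span a narrower range than those of either other group, and for Slc6a5 that range is 0.58 log2 units.

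The comparison of YSGr with YSGnr sets rescued against non-rescued tumours of the same genotype. Of the 8 genes, 5 were higher in YSGr (Gad1, Gad2, Pax2, Lhx5 and Tfap2b), none was lower, and 3 did not pass the test (limma, Benjamini-Hochberg adjusted p below 0.05 over 15251 tested genes). Of all tested genes 5.09% were higher and 0.879% lower by the same rule. Both enzymes of GABA synthesis were among the 5, Pax2 had the largest difference, and Lhx1 was the only member with a lower mean in YSGr than in YSGnr. The median log2 fold change was 1.50 over the members and 0.01 over all tested genes. At 5 members every YSGr library was above every YSGnr library, a pattern that held in that direction at 15% of tested genes.

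Gad1 lies on chromosome 2 from 70553072 to 70602014 on the + strand (GRCm38). Its level was 7.33, 7.51 and 6.19 log2 CPM in YSGr and 5.87, 5.56 and 5.09 in YSGnr, against 6.19, 6.13 and 6.12 in SG. YSGr replicates 1 and 2 were more than a log2 unit above every other library, and replicate 3 was at the level of SG. Gad1 was 2.84-fold higher in YSGr than in YSGnr (log2 fold change 1.51, SE 0.32, limma adjusted p = 0.0396).

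Gad2, the gene of the synapse-associated form of the enzyme, lies on chromosome 2 from 22622205 to 22693874 on the + strand. Its level was 5.59, 5.66 and 4.05 log2 CPM in YSGr and 3.35, 3.67 and 3.02 in YSGnr, against 4.11, 4.18 and 4.31 in SG. The YSGnr libraries were all below SG, and YSGr replicate 3 was just below SG. Gad2 was 3.37-fold higher in YSGr than in YSGnr (log2 fold change 1.75, SE 0.39, limma adjusted p = 0.0403).

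Slc6a5, the glycine transporter gene, lies on chromosome 7 from 49910146 to 49963856 on the + strand. Its level was 4.25, 4.55 and 2.94 log2 CPM in YSGr and 3.26, 2.20 and 1.80 in YSGnr, against 3.32, 2.87 and 3.45 in SG. All 3 groups overlapped: YSGr replicate 3 was below YSGnr replicate 1, which stood within the range of SG. The log2 fold change of YSGr against YSGnr was 1.49 (SE 0.47) and was not called (limma adjusted p = 0.0758).

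Pax2, the factor gene of interneuron precursors, lies on chromosome 19 from 44756045 to 44837871 on the + strand. Its level was 5.08, 4.92 and 3.45 log2 CPM in YSGr and 3.33, 2.18 and 1.68 in YSGnr, against 4.42, 4.38 and 4.30 in SG. YSGr replicates 1 and 2 were above SG, YSGr replicate 3 was below it, and the YSGnr libraries were the 3 lowest. Pax2 was 4.26-fold higher in YSGr than in YSGnr (log2 fold change 2.09, SE 0.48, limma adjusted p = 0.0436).

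Lhx1, a LIM-homeodomain gene, lies on chromosome 11 from 84518284 to 84525535 on the - strand. Its level was 7.02, 6.73 and 6.82 log2 CPM in YSGr and 7.06, 6.96 and 7.16 in YSGnr, against 6.73, 6.95 and 6.90 in SG. The 9 libraries thus lay between 6.73 and 7.16, the narrowest range of the 8 genes, and YSGr overlapped both other groups. The log2 fold change of YSGr against YSGnr was -0.20, with a 95% interval of -0.50 to 0.09 (limma adjusted p = 0.288).

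Lhx5, the other LIM-homeodomain gene, lies on chromosome 5 from 120431699 to 120441223 on the + strand. Its level was 5.0, 4.72 and 4.27 log2 CPM in YSGr and 3.89, 3.66 and 2.81 in YSGnr, against 3.51, 3.72 and 3.43 in SG. It was the only member with all 3 YSGr libraries, replicate 3 included, more than 0.3 log2 units above all other libraries. Lhx5 was 2.32-fold higher in YSGr than in YSGnr (log2 fold change 1.21, SE 0.29, limma adjusted p = 0.0457).

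Tfap2a lies on chromosome 13 from 40715302 to 40738376 on the - strand. Its level was 4.46, 4.30 and 2.96 log2 CPM in YSGr and 3.18, 2.28 and 1.78 in YSGnr, against 3.97, 3.89 and 3.87 in SG. YSGr replicates 1 and 2 were above SG, and replicate 3 was below SG and below YSGnr replicate 1. The log2 fold change of YSGr against YSGnr was 1.49 (SE 0.43) and was not called (limma adjusted p = 0.0651). In the annotation 718 of its exon bases overlap genes on the other strand, and 69 of those of Lhx5, and, strand being not given in the sources used, reads of these partners cannot be told apart from those of the member.

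Tfap2b, the other AP-2 gene, lies on chromosome 1 from 19208914 to 19238576 on the + strand. Its level was 5.34, 5.31 and 3.79 log2 CPM in YSGr and 3.60, 3.29 and 2.57 in YSGnr, against 4.55, 4.53 and 4.37 in SG. YSGr replicate 3 was nearer to YSGnr replicate 1 than to the other YSGr libraries. Tfap2b was 3.17-fold higher in YSGr than in YSGnr (log2 fold change 1.66, SE 0.41, limma adjusted p = 0.0477).

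These 5 calls rested on adjusted p-values close to the threshold. None of the 8 members was called with any single one of YSGr replicates 1 and 2, YSGnr replicates 2 and 3 and SG replicates 1, 2 and 3 left out, or with the 6 libraries of the comparison alone, where 0 of the tested genes were called. Without YSGr replicate 3, 7 members were called higher and so were 22.2% of the tested genes; without YSGnr replicate 1 the figures were 7 and 16.8%. Without both, 7 members were called higher, against 32% of the tested genes, and Lhx1 was not called. Among the libraries with high Xist, all 3 YSGr libraries were above the single such YSGnr library, replicate 1, for Gad1, Gad2, Pax2, Lhx5 and Tfap2b but not for Slc6a5, Tfap2a or Lhx1. For those 5 genes this follows from the lack of overlap already given, so it is no further evidence. It also rests on that single library, with 3.92 M effective reads, and the part of the Xist split was not tested.

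**Figure D2:**
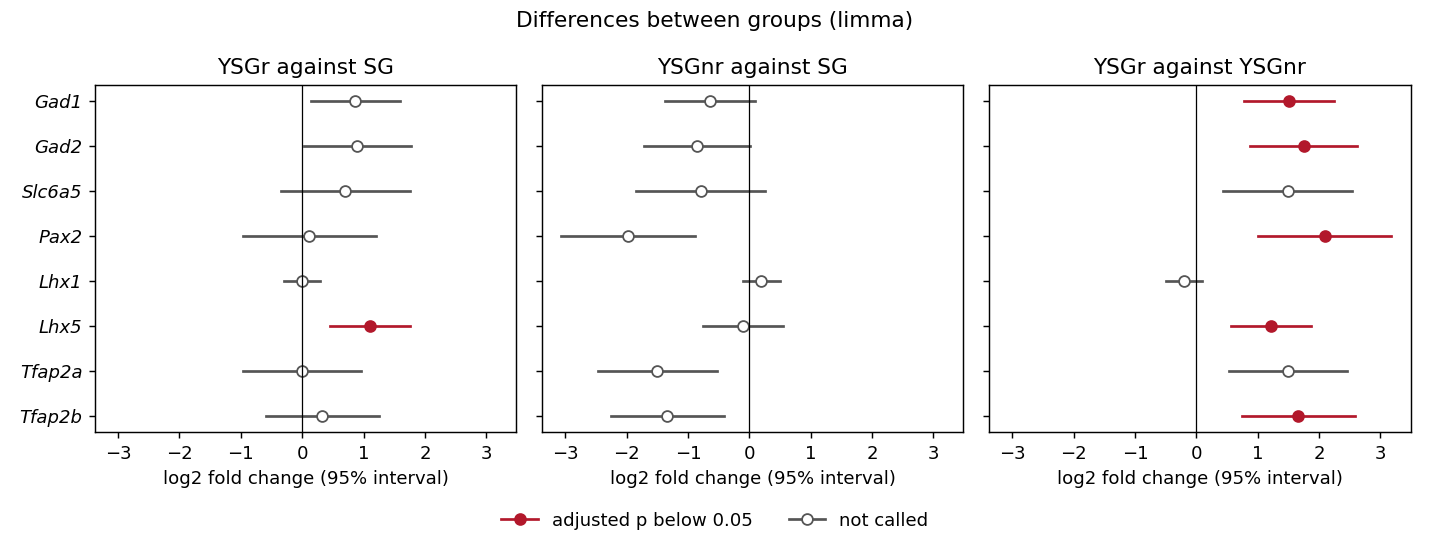
Log2 fold change of each gene (horizontal axis) with its 95% interval in the 3 comparisons, filled where the limma adjusted p was below 0.05. Filled points are Lhx5 in YSGr against SG and Gad1, Gad2, Pax2, Lhx5 and Tfap2b in YSGr against YSGnr.

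The comparison of YSGr with SG sets rescued tumours with the conditional Yap1 allele against tumours without it. Lhx5 alone was called: it was 2.16-fold higher in YSGr (log2 fold change 1.11, SE 0.29, limma adjusted p = 0.0409), and all 3 YSGr libraries were above all 3 SG libraries. With 1 of 8 members called, against 6.58% of all tested genes called higher and 3.97% called lower in this comparison, the members' share was near the background. The median log2 fold change was 0.52 over the members and -0.02 over all tested genes. At 2 members, Gad1 and Lhx5, every YSGr library was above every SG library, as at 19.5% of tested genes.

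The transmitter genes had positive values that were not called, with log2 fold changes of 0.87 for Gad1 (SE 0.32, limma adjusted p = 0.126), 0.90 for Gad2 (SE 0.39, adjusted p = 0.177) and 0.70 for Slc6a5 (SE 0.47, adjusted p = 0.39). Apart from Lhx5, the means of the transcription factor genes differed by less than the SD of YSGr. Pax2 averaged 4.48 ± 0.90 log2 CPM in YSGr and 4.37 ± 0.06 in SG, and Tfap2b 4.81 ± 0.89 in YSGr and 4.48 ± 0.10 in SG (SD, n = 3 each). Tfap2a and Lhx1 differed by less than 0.01 log2 units, but the 95% interval of Tfap2a ran from -0.97 to 0.97 and that of Lhx1 from -0.30 to 0.29. The similar means of Pax2 and of both AP-2 genes therefore came from YSGr replicates 1 and 2 above SG and replicate 3 below it. Without YSGr replicate 3, Gad1, Gad2, Lhx5 and Tfap2b were called higher, against 14.4% of tested genes, and Lhx5 was not called without YSGr replicate 1 or 2, YSGnr replicate 2 or any SG replicate.

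The comparison of YSGnr with SG sets non-rescued tumours against tumours without the conditional Yap1 allele. No member was called by limma in either direction, where 1.19% of tested genes were higher and 2.17% lower. At an unadjusted p below 0.05, 3 members were lower, Pax2, Tfap2a and Tfap2b, and none was higher, against 14.5% of tested genes lower by that rule. The median log2 fold change was -0.82 over the members and -0.01 over all tested genes. At 5 members (Gad1, Gad2, Pax2, Tfap2a and Tfap2b) every YSGnr library was below every SG library, as at 21.3% of tested genes, and at 1, Lhx1, every YSGnr library was above, as at 16.9%.

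Pax2 had the lowest value of the 8, with a log2 fold change of -1.97 (SE 0.48, limma adjusted p = 0.0579), followed by Tfap2a at -1.50 (SE 0.43, adjusted p = 0.0824) and Tfap2b at -1.33 (SE 0.41, adjusted p = 0.0953). The enzyme genes were nearer to SG, at -0.85 for Gad2 (SE 0.39) and -0.64 for Gad1 (SE 0.32), with adjusted p of 0.2 and 0.241. Slc6a5 stood at -0.79 (SE 0.47, adjusted p = 0.304), Lhx5 at -0.10 (SE 0.29, adjusted p = 0.842) and Lhx1 at 0.20 (SE 0.13, adjusted p = 0.351). Calls in this comparison appeared under other choices of libraries: 5 members were lower without YSGr replicate 3, 3 without YSGnr replicate 1 and 4 with the 6 libraries alone, against 10.3%, 11.3% and 5.13% of tested genes. The YSGr and YSGnr comparisons with SG share the 3 SG libraries, and all 3 comparisons share 1 estimate of the spread. That spread was unequal between groups: for Gad1 the SD was 0.72 in YSGr, 0.39 in YSGnr and 0.04 in SG.

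**Figure D3:**
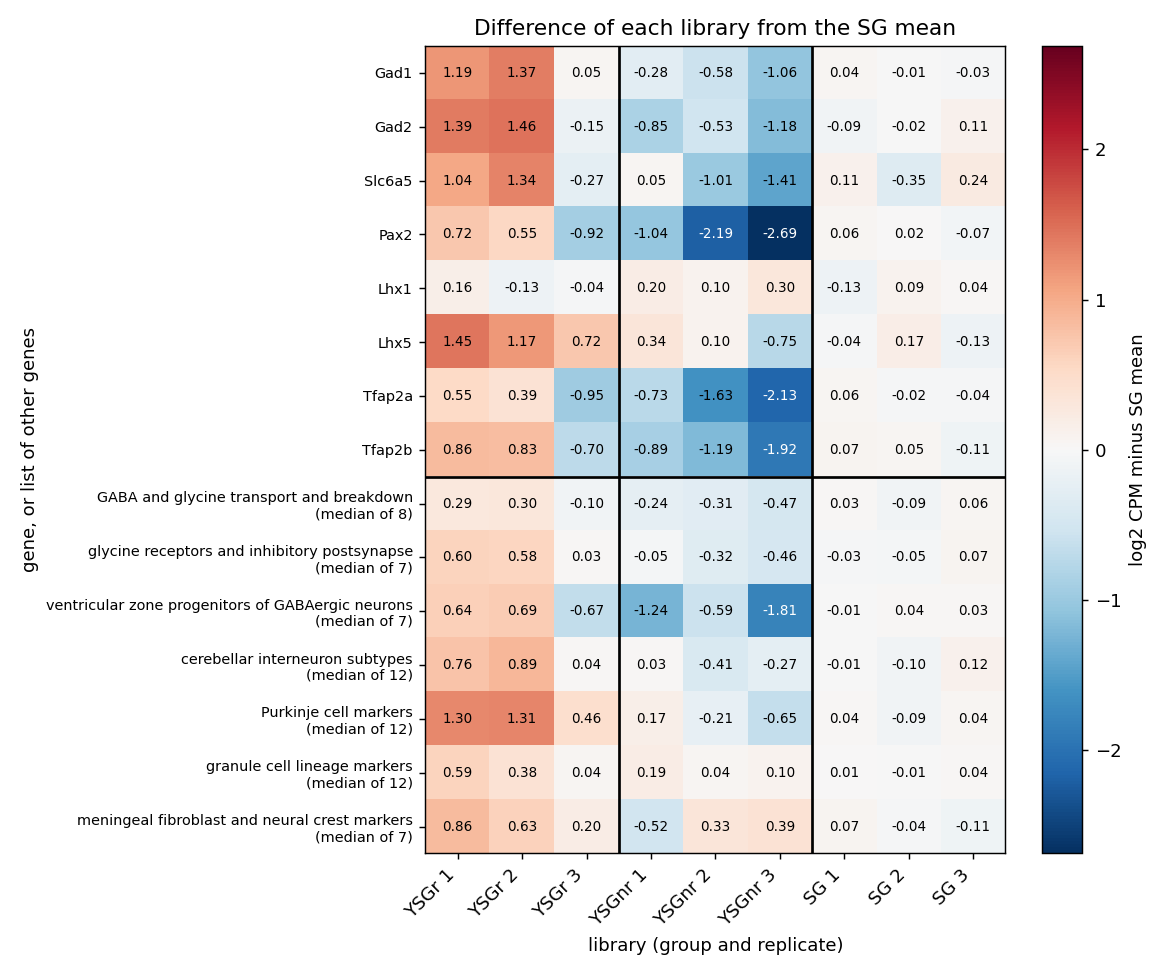
Difference of each library (columns, YSGr, YSGnr, SG) from the SG mean for each gene and, below the line, for the median of each of 7 lists of other genes, in log2 units (colour and printed value). YSGr replicates 1 and 2 are above the SG mean for all members except Lhx1 in replicate 2, and YSGnr replicate 3 is below it for all members except Lhx1.

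Within the YSGr and YSGnr groups 7 of the 8 genes varied together. YSGr replicate 3 was the lowest YSGr library at 7 members, all except Lhx1, whereas it was the lowest at 42.8% of tested genes. YSGnr replicate 3 was likewise the lowest YSGnr library at 7 members, against 29.5% of tested genes, and YSGnr replicate 1 was the highest at 6, against 40.1%. The median deviation of the members from SG was 0.95, 1.00 and -0.21 log2 units in YSGr and -0.50, -0.80 and -1.29 in YSGnr. Over the 9 libraries the Pearson r between Pax2 and Tfap2a was 0.995 and that between Gad1 and Gad2 was 0.97, whereas Lhx1 had an r between -0.58 and -0.35 with the other members. These coefficients describe 9 libraries that share their groups, their depth and the same outlying libraries. Taken as deviations from the group means, the r of Pax2 and Tfap2a was 0.998 and that of Gad1 and Gad2 was 0.91. Lhx1 then had an r between -0.14 and 0.03 with the other members.

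Differences between members, taken within each library, cancel a shift common to both genes. The pairs were chosen after values were seen and were not tested. Pax2 minus Gad1 was -2.25, -2.59 and -2.74 log2 units in YSGr and -2.54, -3.38 and -3.41 in YSGnr, against -1.77, -1.75 and -1.82 in SG. Pax2 was therefore lower relative to Gad1 in all 6 libraries with fYap1 than in any SG library. Lhx1 minus Lhx5 was 2.02, 2.01 and 2.55 log2 units in YSGr and 3.17, 3.30 and 4.35 in YSGnr, against 3.22, 3.23 and 3.47 in SG, so that Lhx5 was nearer to Lhx1 in each YSGr library than in any other. Gad1 minus Gad2 overlapped in all 3 groups, with means of 1.91 ± 0.21 in YSGr, 2.16 ± 0.32 in YSGnr and 1.94 ± 0.13 in SG (SD, n = 3 each). Tfap2a minus Tfap2b was -0.91 ± 0.09 in YSGr and -0.74 ± 0.30 in YSGnr, against -0.57 ± 0.07 in SG, and all YSGr libraries were below all SG libraries.

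Of 8 genes that transport or break down GABA and glycine, 2 were higher and 1 lower in YSGr than in YSGnr, 2 were higher and 1 lower in YSGr than in SG, and 1 was lower in YSGnr than in SG. Slc32a1, which loads both transmitters into synaptic vesicles, was 6.46, 6.36 and 5.71 log2 CPM in YSGr and 5.21, 4.87 and 4.50 in YSGnr, against 5.0, 4.96 and 5.04 in SG. Every YSGr library was above all others, and Slc32a1 was higher in YSGr than in YSGnr by 1.31 log2 units (SE 0.23, limma adjusted p = 0.0278) and than in SG by 1.18 (SE 0.23, adjusted p = 0.0166). Slc6a11, a GABA transporter of astrocytes, went the other way, with log2 fold changes of -0.86 in YSGr against YSGnr (adjusted p = 0.0488) and -1.61 in YSGr against SG (adjusted p = 0.00387). Aldh5a1, an enzyme of GABA breakdown, was lower in YSGnr than in SG (log2 fold change -0.76, SE 0.15, adjusted p = 0.0328) and higher in YSGr than in YSGnr (0.60, adjusted p = 0.0486). Slc6a13, a further GABA transporter gene, was higher in YSGr than in SG (1.10, SE 0.29, adjusted p = 0.0414).

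Of 7 tested genes of glycine receptors and the inhibitory postsynapse, 3 were higher in YSGr than in YSGnr, 1 was higher in YSGr than in SG and none was called in YSGnr against SG. Slc12a5, the neuronal chloride exporter gene, was 7.44, 7.66 and 6.68 log2 CPM in YSGr and 5.98, 4.99 and 5.26 in YSGnr, against 5.84, 5.61 and 6.0 in SG. It was higher in YSGr than in YSGnr by 1.85 log2 units (SE 0.30, limma adjusted p = 0.0267) and than in SG by 1.44 (SE 0.30, adjusted p = 0.02). The glycine receptor subunit gene Glra2 (1.89, SE 0.43, adjusted p = 0.0422) and Nlgn2, an adhesion protein of inhibitory synapses (0.81, SE 0.19, adjusted p = 0.0468), were also higher in YSGr than in YSGnr. In YSGnr against SG, Nlgn2 stood at -0.40 (adjusted p = 0.222) and the chloride importer gene Slc12a2 at -0.33 (adjusted p = 0.375).

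Of 7 tested genes of ventricular zone progenitors, 1 was called in YSGr against SG and 1 in YSGnr against SG, both lower. Olig2, which also marks oligodendrocyte precursors, was lower in YSGr than in SG (log2 fold change -1.22, SE 0.28, limma adjusted p = 0.0277), and Prdm13, a factor that favours GABAergic over glutamatergic fate, was lower in YSGnr than in SG (-2.37, SE 0.53, adjusted p = 0.0473). Ptf1a, the defining factor of these progenitors, was low in every library, between -3.52, the lowest value of the table, and 1.02 log2 CPM.

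Few paralogs and partners of the factor genes were called. Of 4 tested paralogs limma called none in any comparison. Lhx2, with the highest mean log2 CPM of these, had log2 fold changes of -1.32 in YSGr against YSGnr (SE 0.66, limma adjusted p = 0.182), -1.33 in YSGr against SG (adjusted p = 0.238) and -0.01 in YSGnr against SG (adjusted p = 0.995), and those of Lhx3 were -0.87, -0.45 and 0.42 in the same order (adjusted p = 0.187, 0.578 and 0.558). The other 2 were Lhx9 and Tfap2c, named after their values were seen. Lhx9 was -0.26, -0.36 and 0.13 log2 CPM in YSGr and 1.25, -0.50 and -2.89 in YSGnr, against 2.68, 2.23 and 2.39 in SG, so that neither fYap1 group overlapped SG. Its log2 fold changes were -2.59 in YSGr against SG (SE 0.83, unadjusted p = 0.0119, adjusted p = 0.0795) and -3.14 in YSGnr against SG (SE 0.83, unadjusted p = 0.00412, adjusted p = 0.0687), and 0.55 in YSGr against YSGnr (adjusted p = 0.651). Tfap2c, a further AP-2 gene, stood at 1.51 in YSGr against YSGnr (SE 0.60, unadjusted p = 0.031, adjusted p = 0.118), -0.07 in YSGr against SG (adjusted p = 0.958) and -1.58 in YSGnr against SG (unadjusted p = 0.0254, adjusted p = 0.145). Of 9 cofactors of LIM-homeodomain and AP-2 factors, 2 were called, both in YSGr against SG. Kctd1, an inhibitor of AP-2 activity, was higher there (0.78, SE 0.15, adjusted p = 0.0168) and the related Kctd15 lower (-0.56, SE 0.15, adjusted p = 0.0484). Ldb1, the shared partner of LIM-homeodomain factors, stood between 7.14 and 7.67 log2 CPM in all libraries, with log2 fold changes of -0.27 in YSGr against YSGnr (adjusted p = 0.239) and 0.15 in YSGnr against SG (adjusted p = 0.564). Rlim, which controls the turnover of such complexes, stood at -0.04 (adjusted p = 0.877) and -0.32 (adjusted p = 0.269) in these 2 comparisons.

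Of 12 tested markers of cerebellar interneuron subtypes, 1 was higher in YSGr than in YSGnr, 2 were higher in YSGr than in SG and none was called in YSGnr against SG. Kit, a receptor gene of molecular layer interneurons, was 6.94, 6.74 and 5.92 log2 CPM in YSGr and 5.85, 5.32 and 5.40 in YSGnr, against 5.88, 5.87 and 5.88 in SG. As with Gad1, YSGr replicates 1 and 2 were highest and replicate 3 was near SG, and the difference of YSGr from YSGnr was 1.01 log2 units (SE 0.25, limma adjusted p = 0.0489). The protein kinase gene Prkcd (1.28, SE 0.21, adjusted p = 0.00841) and the calcium buffer gene Pvalb (1.01, SE 0.26, adjusted p = 0.0386) were higher in YSGr than in SG, and Purkinje cells also express Pvalb. In YSGnr against SG, Pvalb stood at 0.81 (adjusted p = 0.103) and Kit at -0.36 (adjusted p = 0.381).

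Markers of Purkinje cells were called in the same comparison as the members. Of 12, 8 were higher in YSGr than in YSGnr, 5 were higher and 1 lower in YSGr than in SG, and 2 were higher in YSGnr than in SG. Their summed level was 1530 to 2598 CPM in YSGr and 643.3 to 1174 in YSGnr, against 973.7 to 1084 in SG. Pcp2 was higher in YSGr than in YSGnr by 1.03 log2 units (SE 0.15, limma adjusted p = 0.0244), Pcp4 by 1.09 (SE 0.15, adjusted p = 0.0229) and Slc1a6 by 0.80 (SE 0.13, adjusted p = 0.0267), and they were higher than in SG by 1.41, 1.45 and 1.72. Slc1a6 and Ppp1r17 were higher in YSGnr than in SG (0.92 and 1.90, adjusted p = 0.0111 and 0.0207), where no member was called. None of the defining Purkinje genes was at the lowest value in any library. Against the Purkinje calcium buffer gene Calb1, Gad1 differed by -1.26, -1.11 and -1.61 log2 units in YSGr and -1.44, -1.01 and -1.06 in YSGnr, against -1.08, -1.12 and -1.15 in SG, and the 3 groups overlapped. Pax2 minus Calb1 was -3.51, -3.70 and -4.36 in YSGr and -3.98, -4.40 and -4.47 in YSGnr, against -2.85, -2.87 and -2.97 in SG, and neither fYap1 group overlapped SG. The 8 calls in YSGr against YSGnr depended on the libraries, as those of the members did. With any 1 of YSGr replicates 1 and 2 and YSGnr replicates 2 and 3 left out, 1 of all tested genes was called higher there. With the 6 libraries of the comparison alone it was 0. This limit holds for the calls of the other lists in that comparison too. The part of Purkinje cell content in the results was not tested.

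Markers of other cell sources were measured in the same way. Of 12 granule lineage markers 4 were higher in YSGr than in YSGnr, 3 in YSGr than in SG and 3 in YSGnr than in SG, led by Cbln3, Gabra6 and Gabrd, genes of mature granule neurons, with log2 fold changes of 1.63, 1.59 and 1.13 in YSGr against YSGnr (limma adjusted p = 0.0158, 0.0267 and 0.0423). The same genes differed from SG by 3.32, 3.06 and 3.42 in YSGr (adjusted p = 9.19e-05, 0.000734 and 0.000582) and by 1.69, 1.47 and 2.29 in YSGnr (adjusted p = 0.00438, 0.0227 and 0.00547). Other genes of that list went the other way and were not called. Among them, named after their values were seen, Atoh1, Gli1 and Barhl1 stood at -1.66, -1.51 and -0.98 in YSGr against YSGnr (limma adjusted p = 0.153, 0.106 and 0.099). They stood at -1.56, -1.72 and -0.77 in YSGr against SG (adjusted p = 0.226, 0.0838 and 0.202). The median of the 12 was 0.42 in YSGr against YSGnr and 0.26 in YSGr against SG. The summed granule list was 2710 to 3509 CPM in YSGr and 2590 to 2889 in YSGnr, against 2566 to 2767 in SG. Tfap2a and Tfap2b are also genes of neural crest derivatives, and of 7 tested meningeal and neural crest markers Col1a1 (1.91, SE 0.37) and Col1a2 (1.13, SE 0.22) were higher in YSGr than in YSGnr (adjusted p = 0.0334 for both). In YSGnr against SG these stood at -1.34 and -0.70 (adjusted p = 0.0746 and 0.0992) while Dcn stood at 0.53, Twist1 at 0.39, Lum at 0.36, Aldh1a2 at 0.23 and Foxc1 at -0.50, none of them called, and the median of the 7 was 0.23. Dcn, a matrix gene of fibroblasts, was higher in YSGr than in SG (0.85, SE 0.18, adjusted p = 0.021). The summed level of the 9 genes of that list in the table was 163.1 to 301.4 CPM in YSGr and 100.9 to 124.3 in YSGnr, against 150.1 to 169.8 in SG, and no library had its defining gene Foxc1 at the lowest value. The part of these cells in the results was not tested.

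Slc6a5 is also a gene of brainstem glycinergic neurons, and 3 of 13 posterior hindbrain markers were in the table. Their summed level was 0.438 to 0.535 CPM in YSGr and 0.262 to 5.06 in YSGnr, against 3.55 to 9.79 in SG. Hoxb3 was at the lowest value, -3.52 log2 CPM, in all YSGr libraries and in YSGnr replicates 1 and 2, and at 1.04 log2 CPM in YSGnr replicate 3, against 0.08, 0.28 and 1.46 in SG. Hoxb3 and Hoxb2 were lower in YSGr than in SG (limma adjusted p = 0.0475 and 0.0485). The part of brainstem neurons in the Slc6a5 values was not tested. In the comparisons with YSGnr no gene of the list was called: Hoxb2 and Hoxa2 had log2 fold changes of -0.91 and -0.76 in YSGr against YSGnr (adjusted p = 0.538 and 0.569) and -2.85 and -1.79 in YSGnr against SG (adjusted p = 0.133 and 0.246). Of 10 forebrain interneuron markers 5 were in the table and none passed the filter, and their summed level was 1.35 to 3.45 CPM in YSGr and 2.71 to 6.85 in YSGnr, against 2.07 to 2.75 in SG. Lhx6, the defining factor of such interneurons, was between -3.52 and -1.38 log2 CPM.

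The trend with transcript length differed between libraries, and its part in the member levels was not tested. Over 14603 genes, the difference of a library from the SG mean was compared with transcript length. The Spearman rho was 0.17, 0.14 and -0.42 in YSGr and -0.08, -0.55 and -0.53 in YSGnr, against -0.03, -0.12 and 0.18 in SG. YSGnr replicates 2 and 3 had the lowest median member deviations and the lowest rho. YSGnr replicate 1, with a median deviation of -0.50, had a rho of -0.08, and YSGr replicate 3, at -0.21, had a rho of -0.42. The transcripts of the members were 2689 bases (Lhx5) to 7065 bases (Slc6a5) long, and the median over tested genes was 3133. With a trend of length and GC removed from each library, 4 members were called higher in YSGr than in YSGnr, with log2 fold changes of 1.49 for Gad1, 1.53 for Gad2, 1.67 for Pax2 and 1.42 for Tfap2b, against 6.82% of tested genes called higher. Lhx5 was then 1.08 in that comparison (limma adjusted p = 0.0543, with a range of 4.15e-05 to 0.195 over its alternatives) and no member was called in YSGr against SG.

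**Figure D4:**
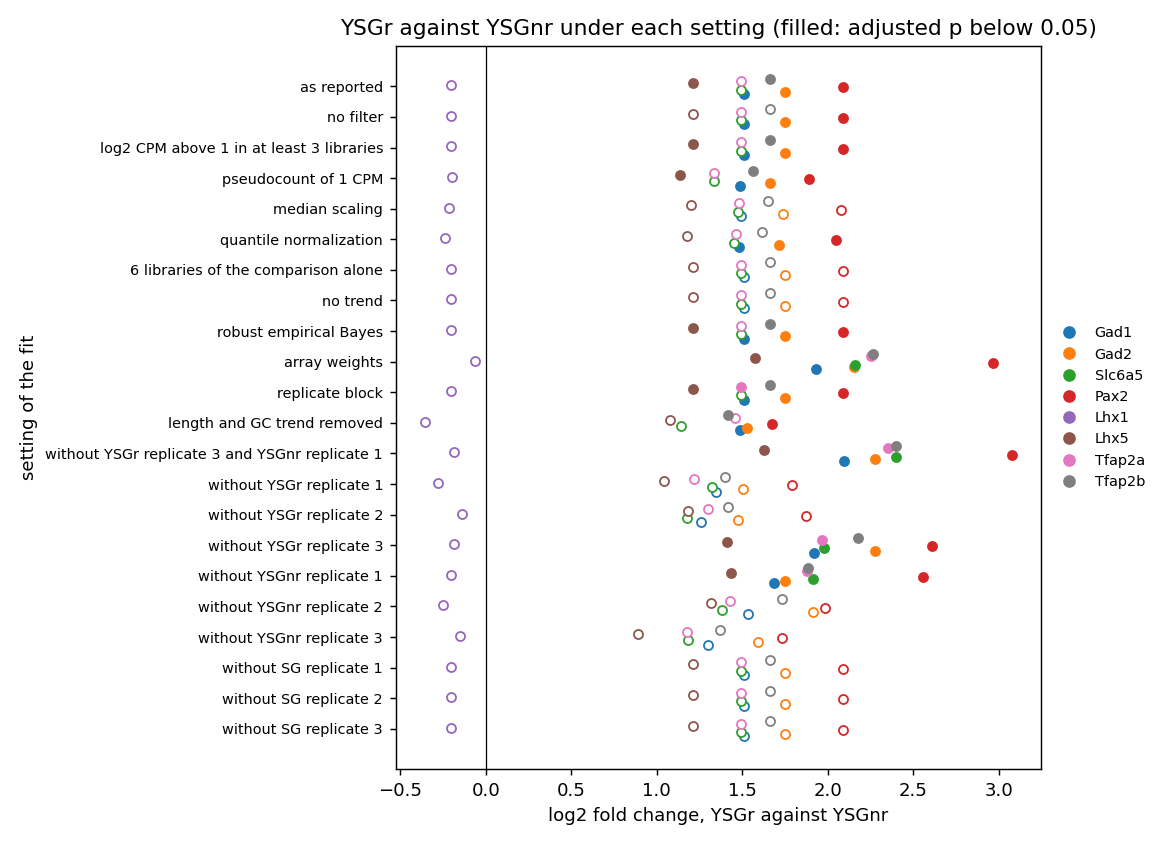
Log2 fold change in YSGr against YSGnr (horizontal axis) under each alternative (vertical list), with 1 point per gene in its own colour, filled where the limma adjusted p was below 0.05. The values of Gad1, Gad2, Slc6a5, Pax2, Lhx5, Tfap2a and Tfap2b are above 0 and those of Lhx1 below 0 throughout, while the filled points change between alternatives.

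Among 12460 genes with a mean of at least 1 log2 CPM, those whose levels over the 9 libraries were most like a member's were named by the highest Pearson r. For Gad1 they were Jazf1, Ptpre and Frrs1l, and for Gad2 Eps8, Scamp1 and Nap1l3, all with r of 0.99. For Slc6a5 they were Sema5a, Scn1a and Dnm3, for Tfap2a Ralgapb, Fam120c and Ankrd13c, and for Tfap2b Nrk, Klhl4 and Lbx1, again with r of 0.99. Pax2 was most like Adamts3 (r of 0.995), Ankrd13c and Zfp618. For these 6 members 131 (Gad2) to 248 (Tfap2a) genes had an r above 0.95, so the named genes are a few among many with that pattern. Lhx5 had 21 such genes, led by Itpka, Gramd4 and Gal3st3 with r of 0.98, 0.97 and 0.97. Lhx1 had none, and was most like the cyclin gene Ccnd2 (r of 0.89), Acat3 (0.87) and Ikbkg (0.86). Taken as deviations from the group means, the same r values were 0.96 to 0.99 for the genes named with those 6 members, 0.89 to 0.95 for Lhx5 and 0.73 to 0.83 for Lhx1.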

How the data were processed

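Per the labels' protocols, RNA was isolated with a Trizol-type reagent from tumour tissue, and BGI made the libraries and sequenced them on the DNBseq platform. The submitters' processing notes name Trimmomatic, RSEM, Bowtie2, Picard, edgeR and build mm10, with no versions or order. Not given in the sources used here were strand, ribosomal RNA removal and annotation. What the authors deposited is log2 CPM for 17482 genes in 9 libraries, already scaled and with an added count, which the shared lowest value of -3.52 puts at about 2.00 reads. Estimated reads were back-calculated from it. Between 61% and 69.7% of low values were whole to within 0.02 reads, so no count test was used, and fold changes understate changes of low genes.

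Tests used limma 3.58.1 (R 4.3.3), with group means fitted over the 9 libraries, a mean-variance trend, two-sided moderated tests and Benjamini-Hochberg adjustment over the 15251 genes above 0 log2 CPM in at least 3 libraries. A gene was called at an adjusted p below 0.05. The steps were tested on simulated data. Replicate pairs differed by more than sampling noise (median chi-square per gene at least 1.34, against 0.455), so none was merged. Gene coordinates, lengths and GC were those of GENCODE M21 (GRCm38, the same assembly as mm10) for 95.6% of symbols; promoter windows came from RefSeq. In each list of other genes, up to 3 called genes per comparison were named by smallest adjusted p, or up to 2 by highest mean level where none was called. A result that this rule would name is not reported here. For each member the 3 genes with the highest r were named. The members and lists were chosen with earlier results of these data known. Alternatives were no filter, a filter at 1 log2 CPM, a pseudocount of 1 CPM, quantile normalization, median scaling, the 6 libraries of a comparison, no trend, robust empirical Bayes, array weights, a replicate block, removal of a length and GC trend, omission of YSGr replicate 3 with YSGnr replicate 1, and each library left out in turn.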

Additional observations from a re-analysis of the deposited data

Results flagged for a closer look

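The differences of YSGr and of YSGnr from the shared SG libraries were themselves different at 5 of the 8 genes, by the limma test of YSGr against YSGnr, in which SG cancels. That difference was 2.09 log2 units for Pax2 (adjusted p = 0.0436), 1.75 for Gad2 (adjusted p = 0.0403), 1.66 for Tfap2b (adjusted p = 0.0477), 1.51 for Gad1 (adjusted p = 0.0396) and 1.21 for Lhx5 (adjusted p = 0.0457), and at each of them all 3 YSGr libraries were above all 3 YSGnr libraries. Of all tested genes 5.09% were higher by this test, and at 15% all YSGr libraries were above all YSGnr libraries. None of the 5 was called with median scaling, with no trend or with the 6 libraries of the comparison alone. Nor was any called with any single one of YSGr replicates 1 and 2, YSGnr replicates 2 and 3 and the SG replicates left out. All 5 had opposite signs in the comparisons with SG: 0.12 in YSGr and -1.97 in YSGnr for Pax2, 0.90 and -0.85 for Gad2, 0.33 and -1.33 for Tfap2b, 0.87 and -0.64 for Gad1, and 1.11 and -0.10 for Lhx5. Of these 10 values the 1.11 of Lhx5 in YSGr was called (limma adjusted p = 0.0409) and the others were not. The 5 genes were picked by their difference between YSGr and YSGnr, which favours values on either side of SG. Their opposite signs are therefore no further evidence. Pax2 in YSGr was -0.18 without YSGr replicate 1, and Lhx5 in YSGnr was 0.22 without YSGnr replicate 3.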

How the results depend on the processing

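Over 21 alternatives for each of the 8 genes and 3 comparisons, the members called in YSGr against YSGnr, 5 as reported, numbered 3 with no filter and with quantile normalization, 0 with median scaling, with the 6 libraries alone and with no trend, and 0 to 7 with each library left out in turn. Of all tested genes 3.48% were called higher with no filter, 3.42% with quantile normalization, 1.72% with median scaling, 3.29% with no trend and 0 with the 6 libraries. In YSGr against SG the number of members called, 1 as reported, was 0 with no trend and with the length and GC trend removed, 7 with array weights and without YSGr replicate 3 and YSGnr replicate 1 together, and 0 to 4 with each library left out. Tested genes called higher there were 6.13% with no trend, 8.44% with the length and GC trend removed, 30.8% with array weights and 23.5% without both libraries. In YSGnr against SG the number of members called, 0 as reported, was 4 with the 6 libraries alone, 6 with array weights and with both libraries left out, and 0 to 5 with each library left out. Tested genes called lower there were 5.13% with the 6 libraries alone, 24% with array weights and 26.3% with both left out. Estimation of the array weights stopped before it converged, and they gave YSGr replicate 3 and YSGnr replicate 1 weights of 0.104 and 0.117, against 0.713 or more elsewhere. The cause of these changes was not tested.

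All genes called moved likewise. In YSGr against SG they numbered 1608 as reported, 9661 with array weights, 7556 without both libraries and 328 to 4257 with each left out. In YSGnr against SG they numbered 512 as reported, 1190 with the 6 libraries alone, 7316 with array weights, 8074 without both and 19 to 3332 with each left out. In YSGr against YSGnr they numbered 910 as reported, 316 with median scaling, 0 with the 6 libraries alone, 568 with no trend, 9967 with array weights, 1830 with the trend removed, 9867 without both and 1 to 6528 with each left out. With the trend removed the higher and lower calls in YSGr against YSGnr were 996 and 834, against 776 and 134 as reported, and in YSGnr against SG 408 and 331, against 181 and 331. Array weights gave 4700 and 4961 in YSGr against SG, 3655 and 3661 in YSGnr against SG and 4993 and 4974 in YSGr against YSGnr, and YSGr against SG was 1003 and 605 as reported. The counts called in the lists of other genes changed as well. Over lists, comparisons and alternatives, 247 of these counts moved to or from 0 or by more than a set ratio, and 446 did not.

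In YSGr against YSGnr no member changed direction under any alternative, and in the other comparisons those that did lay near 0 in the fit as reported. In YSGr against SG, Tfap2a was 0.0076 with a pseudocount of 1 CPM, 0.00043 with median scaling, 0.51 with array weights, 0.47 without both libraries and -0.28 to 0.47 with each left out. With array weights and without both libraries Tfap2a was called higher (limma adjusted p = 0.00405 and 0.0313), as were 30.8% and 23.5% of tested genes. Lhx1 was 0.00039 with median scaling, 0.11 with array weights, 0.014 without both libraries and -0.082 to 0.061 with each left out. Pax2 was -0.10 with the trend removed and -0.18 to 0.64 with each left out, being below 0 without YSGr replicate 1 or 2. In YSGnr against SG, Lhx5 was -0.32 to 0.22 with each left out, being above 0 without YSGnr replicate 3.

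Replicate numbers did not pair the libraries: same-numbered libraries had correlations of deviations between -0.23 and 0.24. With the replicate number as a block, 6 members were called in YSGr against YSGnr, 1 in YSGr against SG and 1, Pax2, in YSGnr against SG (limma adjusted p = 0.0355), with 860, 1194 and 341 genes. The deposited values limit precision most in YSGnr replicate 1, with 3.92 M (mega) effective reads.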
